A study of Mus musculus with 3 samples.

Results

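Semaphorins, plexins and neuropilins are a guidance system of ligands and receptors, and this account gives the Atoh7 peaks found in and around their genes. The members were chosen by symbol among the protein-coding genes of RefSeq (GRCm38.p6, the assembly that mm10 names): every gene starting with Sema or Plxn, plus Nrp1 and Nrp2. This gave 31 of the 21631 protein-coding genes on chromosomes 1 to 19 and X, with 11 receptor genes (9 plexins and 2 neuropilins) and 20 ligand genes (the semaphorins). The antisense long noncoding RNA gene Plxna4os1 shares the root but codes for no protein and was left out. The study mapped where Atoh7, a basic helix-loop-helix transcription factor of neurogenic retinal progenitors, sits in the genome. It used CUT&RUN, where a nuclease tethered to an antibody frees the DNA beside the protein. The titles name 2 Atoh7 libraries and 1 IgG control library, all from C57Bl6/J mouse retina at embryonic day 14. They name no further genotype, allele or treatment, and do not say how many animals each library holds. The values are 1 list of 3668 peaks with positions and widths, of which 3662 lie on chromosomes 1 to 19 and X. The list has no peak height and no value per library, so read depth is unknown, the Atoh7 libraries could not be compared with each other, and the IgG library is not analysed here.

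Semaphorins are secreted or membrane-bound proteins that mostly repel growing axons, and in some settings attract them. Plexins are their transmembrane receptors, which act on small GTPases and the cytoskeleton. Most secreted semaphorins, those of class 3, bind a neuropilin, which pairs with a plexin to pass on the signal, while membrane semaphorins bind plexins directly. In the retina these proteins guide ganglion cell axons, the fibres of the optic nerve, and help to sort the neurites of inner neurons into layers.

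Few of these genes held a peak inside, and their share was near that of all protein-coding genes. A peak was centred inside 3 of the 31 members (9.68%, exact 95% interval 2.04 to 25.8%), against 7.17% of all protein-coding genes. Those 3 genes were Plxna2, Plxna4 and Sema6d, with 1 peak each. Within 100 kb of the gene, inside it included, 16 of 31 members had a peak (51.6%, 33.1 to 69.8%), against 34.9% of all protein-coding genes. Both shares of all genes lie within the members' intervals. The median member had 1 peak within 100 kb and the highest had 5, while the median of all protein-coding genes was 0. In all, 32 different peaks lay within 100 kb of a member, and 2 of them were shared by Sema3b and Sema3f. A member was the nearest protein-coding gene for only 7 of these 32 peaks (21.9%). Counted this way 6 members had a peak (19.4%, 7.45 to 37.5%), against 11.2% of all protein-coding genes. All intervals cover the counting of genes or peaks and not spread between animals, and peaks close together are not independent, so they are too narrow.

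**Figure D1:**
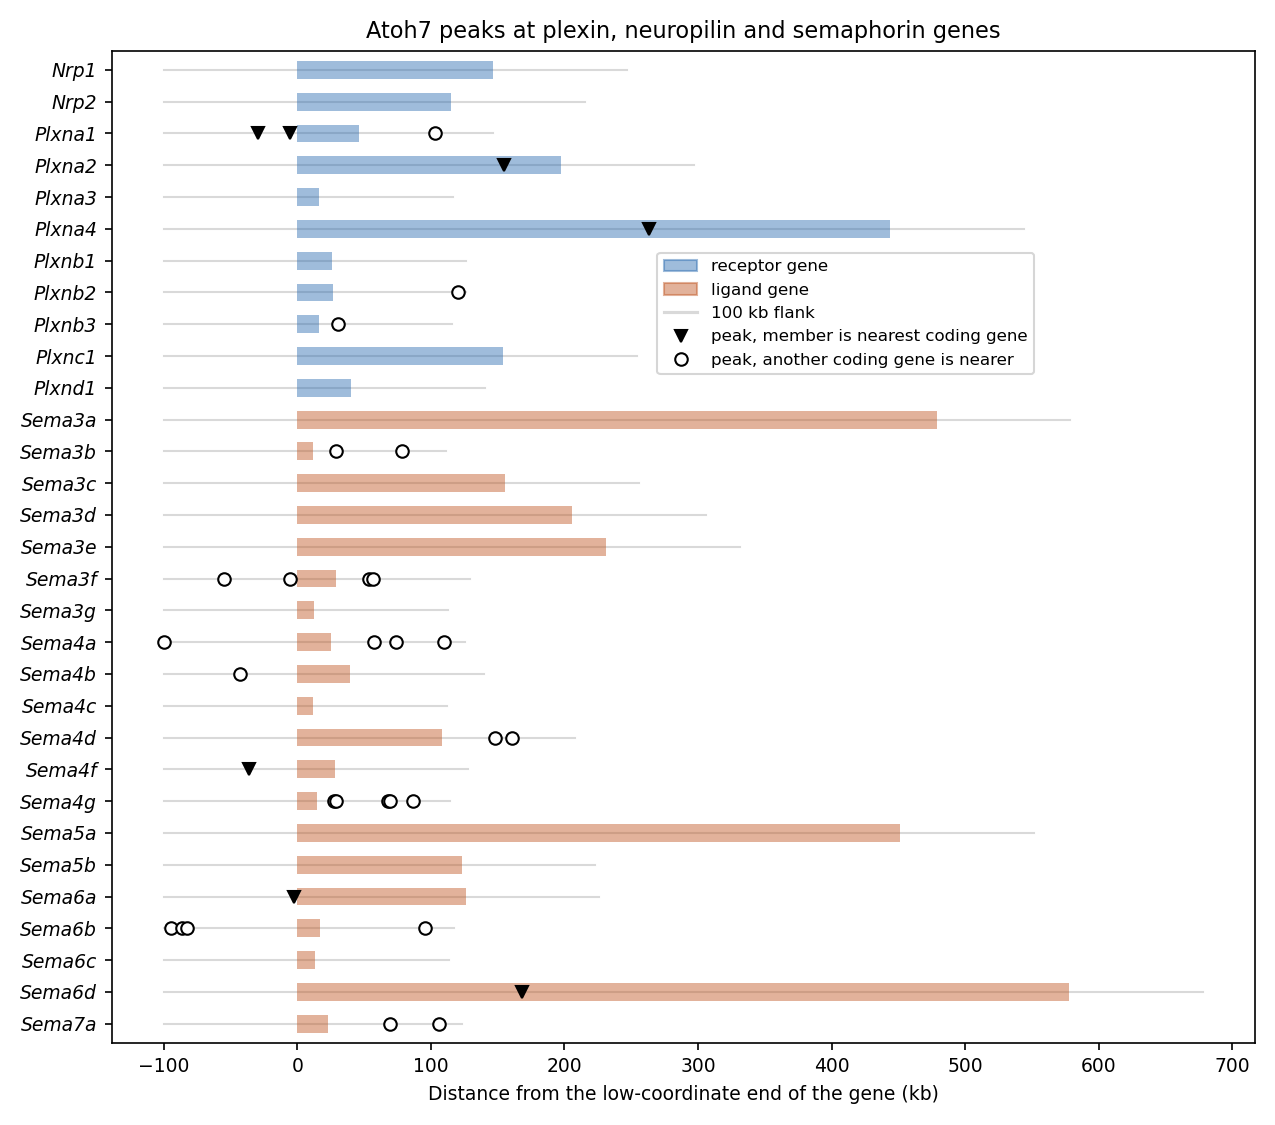
Peaks within 100 kb of each of the 31 genes, drawn as distance in kb from the gene's low-coordinate end, with the gene as a coloured bar and its flanks as a grey line. Filled triangles are the peaks for which the gene is the nearest protein-coding gene and open circles those with another gene nearer: 3 triangles lie inside a gene, in Plxna2, Plxna4 and Sema6d, and most circles lie beside short ligand genes.

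Among the receptors, the only peaks inside genes lay in 2 class A plexins, Plxna2 and Plxna4, the longest receptor genes. Class A genes held 2.84 peaks per Mb inside (0.344 to 10.3), an interval that includes the 1.91 of all protein-coding genes. Plxna2, a receptor for class 6 semaphorins in inner retinal neurons, spans 197 kb of chromosome 1 (194619791 to 194816869) on the plus strand. Its peak at chr1:194774093-194774487, 395 bp wide, was centred 154 kb downstream of the gene's listed start and 42.6 kb before its far end. It was the last peak of the list on that chromosome. Plxna4, which also binds class 6 semaphorins and pairs with neuropilins, spans 444 kb of chromosome 6 (32144543 to 32588192). Its peak at chr6:32407803-32408418 was 616 bp wide, the widest of the 32 peaks, and lay 264 and 180.1 kb from the gene's ends. The other receptor genes held no peak inside.

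Plxna1, the class A plexin found on crossing ganglion cell axons at the optic chiasm, had 3 peaks within 100 kb, the most of any receptor. Of these, chr6:89310896-89311405 (510 bp) was centred 5.16 kb from the gene (89316313 to 89362613) with no other protein-coding gene nearer than 50.2 kb. A second, chr6:89286710-89287007 (298 bp), was centred 29.5 kb away on the same side. Plxna1 was the nearest protein-coding gene to that peak too, but the gene 4930512J16Rik, a long noncoding RNA gene, lay closer, at 1.13 kb. The last of the 3, at 89419321 to 89419878, lay inside the neighbouring gene Chchd6, 57.0 kb from Plxna1. Plxna3, a partner of Nrp2, had no peak within 100 kb, and its nearest lay 541 kb away.

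The class B plexins had peaks only beside other genes. The only peak near Plxnb3 (332 bp, X chromosome) was centred 14.3 kb from it, at the paired starts of Idh3g, a mitochondrial enzyme gene, and Ssr4. The only peak near Plxnb2 was centred 93.7 kb away inside Ppp6r2. The nearest peak to Plxnb1, the receptor for Sema4d, was 405 kb away. Plxnc1, the receptor for Sema7a, and Plxnd1, the receptor for Sema3e, had none within 100 kb, with the nearest at 661 and 112 kb. Nrp1 and Nrp2, the co-receptors of secreted semaphorins, also had none, with the nearest at 149 and 849 kb. Thus 5 of 11 receptor genes had a peak within 100 kb (45.5%, 16.7 to 76.6%), and 2 of 11 had one inside (18.2%, 2.28 to 51.8%). Both intervals include the shares of all protein-coding genes, 34.9% within 100 kb and 7.17% inside.

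Among the ligands, the only peak inside a gene was in Sema6d, a transmembrane semaphorin expressed by cells of the mouse optic chiasm. Sema6d is the longest member, 578 kb of chromosome 2 (124089943 to 124667789, plus strand). Its peak at chr2:124258171-124258385 was 215 bp wide, narrower than all but 2 of the other peaks of the set. It was centred 168 kb downstream of the first of its 2 listed starts and 395 kb upstream of the second. Sema6a, a transmembrane semaphorin that acts with Plxna2 and Plxna4 in the retina, had a peak on chromosome 18 at 47242551 to 47242833. That peak was centred 2.56 kb outside the low-coordinate end of the gene (47245254 to 47371200), the shortest distance of any peak outside a member. The nearest other protein-coding gene, Commd10, was 155 kb away. Sema6b had 4 peaks within 100 kb, but none nearer than 78.5 kb and none for which it was the nearest gene, and Sema6c had none.

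Of the 7 secreted class 3 ligand genes, 2 had a peak within 100 kb and none had one inside. Class 3 genes with flanks held 1.67 peaks per Mb (0.455 to 4.27), against 1.71 for all protein-coding genes, and inside them the upper bound of 3.28 per Mb includes the 1.91 of all genes. Sema3a, which repels many axons through Nrp1, had its nearest peak 924 kb away although the gene is 479 kb long. For Sema3c, Sema3d, Sema3e and Sema3g the nearest peak lay 1337, 1939, 271 and 439 kb away. Sema3f, the ligand of Nrp2, had 4 peaks within 100 kb, the closest (chr9:107676222-107676537) centred 5.12 kb from the gene but inside Gnat1, the rod transducin gene. Sema3b, 72.3 kb from it in the same gene-dense stretch of chromosome 9, shared that peak and another inside Gnai2. Neither was the nearest gene to any peak.

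Class 4 ligands had the most peaks in their surroundings and none inside. Of 6 genes, 5 had a peak within 100 kb, against 34.9% of all protein-coding genes, with 13 peaks in all. Class 4 genes with flanks held 9.11 peaks per Mb (4.85 to 15.6), against 1.71 for all protein-coding genes. Their windows held a median of 6 other protein-coding genes, and all genes in windows with more than 4 held 2.66 per Mb. The genes themselves cover only 0.228 Mb, and inside them the upper bound of 16.2 per Mb includes the 1.91 of all genes. Sema4g led with 5, centred 12.9 to 71.6 kb from the gene, inside Lzts2 (2 peaks), Pdzd7 (2 peaks) and Kazald1. Sema4a, a gene with a known role in photoreceptor survival, had 4, of which 1 lay at the start of Smg5, 1 in Lmna, 1 just outside Lmna and 1 in Rab25. Sema4d had 2, centred 40.0 and 52.9 kb away, and both were nearer to Gadd45g, a growth arrest gene. Sema4b had 1 peak, 43.2 kb away. Sema4f also had 1 (chr6:82875505-82875849), 36.2 kb away, and Sema4f was the nearest protein-coding gene to it, the only such case in class 4. Sema4c had none. Sema5a and Sema5b, which restrict neurites to the inner retina, had no peak over 0.975 Mb of genes and flanks, with the nearest at 344 and 210.5 kb. Sema7a, a membrane-anchored ligand of Plxnc1, had 2, both inside other genes (Cyp11a1 and Ccdc33) at 46.4 and 83.0 kb. In total, 11 of 20 ligand genes had a peak within 100 kb (55.0%, 31.5 to 76.9%), and 1 of 20 had one inside (5%, 0.127 to 24.9%). These intervals too include the shares of all protein-coding genes, 34.9% within 100 kb and 7.17% inside.

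No peak lay at the start of any of these genes. Starts were listed in the RefSeq promoter table for 26 of the 31 members (none for Plxna1, Plxna4, Sema3b, Sema3f and Sema6a), and 0 of 26 had a peak centred within 1 kb of one (exact 95% upper bound 13.2%), against 4.56% of 17274 protein-coding genes with a listed start. The shortest distance from a listed start to a peak centre was 27.0 kb, at Sema4g. Of the 31 peaks on chromosomes with listed starts, 9 (29.0%) lay within 1 kb of the start of a gene that is no member, while 22.6% of all peaks of the list lay within 1 kb of any listed start. These 9 were 1 peak near a receptor and 8 near ligands.

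Of the peaks near members, 8 overlapped a listed promoter window (250 bases before to 50 after a start) of another gene, over stretches of 14 to 300 bases. In 6 of the 8 the covered stretch held an E-box, CANNTG, the hexamer that basic helix-loop-helix dimers bind. Of all 32851 listed windows, taken whole, 72.3% held an E-box. Most of the stretches were shorter than a window, so 6 of 8 cannot be set against that share like for like. The stretches at Lmna and at Kazald1 and Gm35782 held none. CAGCTG stood in 2 of the 8, at Gadd45g and Dpp9, and CAGATG in 2. The sequences below are 3 of the stretches with an E-box, including both with CAGCTG, shown because they lie near Sema4d, Sema6b and Plxnb3, beside starts of members without a peak (RefSeq, GRCm38.p6, gene strand, 5′ to 3′). Capitals mark each E-box, a pattern that reads the same on both strands. The first 3 are the parts of a window covered by a peak.
Gadd45g, chr13:51846425-51846687, plus strand: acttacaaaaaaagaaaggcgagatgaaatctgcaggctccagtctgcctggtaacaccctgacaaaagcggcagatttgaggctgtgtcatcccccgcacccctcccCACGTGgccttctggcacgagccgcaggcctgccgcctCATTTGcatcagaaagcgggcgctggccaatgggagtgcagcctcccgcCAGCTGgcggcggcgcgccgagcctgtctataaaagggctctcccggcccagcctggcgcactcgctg
Dpp9, chr17:56218840-56218934, minus strand: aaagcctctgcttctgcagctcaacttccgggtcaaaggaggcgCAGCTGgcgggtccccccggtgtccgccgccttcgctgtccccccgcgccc
Idh3g, chrX:73786848-73786983, minus strand: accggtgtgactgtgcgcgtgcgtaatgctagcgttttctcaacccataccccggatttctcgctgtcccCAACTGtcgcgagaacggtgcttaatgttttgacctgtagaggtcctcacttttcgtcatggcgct
The other 3 are whole promoter windows without a peak. They are the Sema4d start with CAGCTG in its window, 1 of 3 listed Sema4d starts, and the first starts of both members with a listed start and a peak deep inside.
Sema4d, chr13:51756634-51756933, minus strand: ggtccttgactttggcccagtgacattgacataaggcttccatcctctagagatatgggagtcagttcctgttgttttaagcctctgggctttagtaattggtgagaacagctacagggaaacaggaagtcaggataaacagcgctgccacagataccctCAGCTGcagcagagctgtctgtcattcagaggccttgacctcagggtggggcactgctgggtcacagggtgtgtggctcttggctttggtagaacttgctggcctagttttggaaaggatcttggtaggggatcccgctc
Sema6d, chr2:124089719-124090018, plus strand: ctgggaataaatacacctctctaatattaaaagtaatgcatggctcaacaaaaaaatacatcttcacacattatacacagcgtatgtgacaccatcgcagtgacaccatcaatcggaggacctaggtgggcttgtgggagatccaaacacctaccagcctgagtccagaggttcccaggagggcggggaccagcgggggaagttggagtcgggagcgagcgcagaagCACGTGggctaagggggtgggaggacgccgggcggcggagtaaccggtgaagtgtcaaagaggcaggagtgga
Plxna2, chr1:194619579-194619878, plus strand: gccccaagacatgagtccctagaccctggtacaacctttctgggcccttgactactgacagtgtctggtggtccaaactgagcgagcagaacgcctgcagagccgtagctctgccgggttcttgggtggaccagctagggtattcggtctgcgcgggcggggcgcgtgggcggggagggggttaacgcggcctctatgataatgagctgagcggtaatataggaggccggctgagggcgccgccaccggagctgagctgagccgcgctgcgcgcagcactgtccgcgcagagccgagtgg
The Gadd45g stretch held 3 E-boxes, including CAGCTG, and the Dpp9 stretch held 1, also CAGCTG. The Idh3g stretch held 1. Among the windows without a peak, the Sema4d window shown held CAGCTG as well, the Sema6d window held 1 E-box and the Plxna2 window held none. The other listed Sema4d windows held 1 E-box each and no CAGCTG. Over all members, 21 of 37 listed windows held at least 1 CANNTG, against 72.3% of the 32851 windows in the table. CAGCTG stood in 6 of the 37 (16.3% of all windows), and CAGATG, searched on both strands, in 2 of the 37 (17.2% of all windows). These are letters in a window and not sites. Sequence of the peaks away from promoter windows, including those inside Plxna2, Plxna4 and Sema6d, was not analysed here.

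Relative to length, receptor and ligand genes did not differ beyond counting error. Receptor genes held 2 peaks in 1.23 Mb (1.63 per Mb, exact Poisson 95% interval 0.197 to 5.88) and ligand genes 1 peak in 2.68 Mb (0.372 per Mb, 0.00943 to 2.08). The ratio of receptors to ligands was 4.37, with an exact interval of 0.227 to 258, and it rests on these 3 peaks. With 100 kb flanks added the order turned round, with 7 peaks in 3.43 Mb for receptors (2.04 per Mb, 0.821 to 4.21) and 25 peaks in 6.56 Mb for ligands (3.81 per Mb, 2.47 to 5.63). That ratio was 0.535 (0.196 to 1.27). It turned to 2.13 (0.285 to 15.9) with 10 kb flanks and to 1.91 (0.44 to 8.31) with the wider 50% of peaks, which left 0.763 ligand peaks per Mb. Leaving out Plxna1, the receptor with most peaks, gave 0.33 (0.0834 to 0.955), an interval that no longer includes 1. Counting only the peaks for which a member was the nearest gene turned it to 2.55 (0.431 to 17.4), as 4 of 7 receptor peaks (57.1%, 18.4 to 90.1%) and 3 of 25 ligand peaks (12%, 2.55 to 31.2%) met that condition. Inside genes, all members held 0.767 peaks per Mb (0.158 to 2.24), against 1.91 (1.83 to 2.00) for all protein-coding genes. With flanks the members were higher, at 3.20 per Mb (2.19 to 4.52), against 1.71 (1.65 to 1.77) for all protein-coding genes, and the ligands' interval also lay above that value. Overlapping windows were merged, so a gene-dense region enters the value for all genes once, however many genes it holds. The members' rate and that of all genes thus weight gene-dense regions differently.

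**Figure D2:**
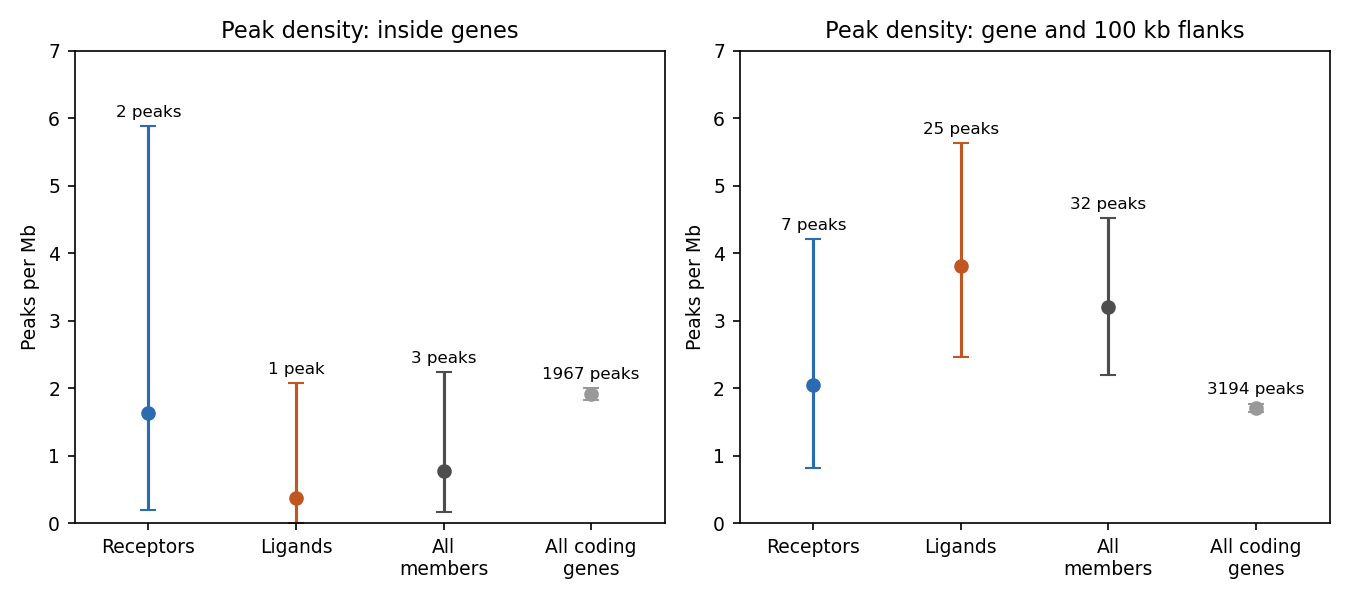
Peaks per Mb inside genes (left) and in genes with 100 kb flanks (right) for receptors, ligands, all members and all protein-coding genes, with exact 95% Poisson intervals as bars and the number of peaks above each. Receptors lie above ligands on the left (1.63 and 0.372 per Mb) and below them on the right (2.04 and 3.81 per Mb), with overlapping intervals in both.

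The shares of members with a peak inside were near those of all genes of like length. Of 14 members of 100 kb or more, 3 had a peak inside (21.4%, 4.66 to 50.8%), against 26.8% of all protein-coding genes of that length. Their density inside was 0.853 peaks per Mb (0.176 to 2.49), against 1.64 (1.54 to 1.75) for all genes of that length. By role, 2 of 5 such receptors and 1 of 9 such ligands had one. Of 17 members under 100 kb, none had a peak inside (upper bound 19.5%), against 4.69% of genes under 100 kb, a share too low for a deficit to be seen in 17 genes. Within 100 kb the counts were 5 of 14 long members (35.7%, 12.8 to 64.9%) against 43.8% of long genes, and 11 of 17 short members (64.7%, 38.3 to 85.8%) against 33.7% of short genes. The short members' genes and flanks held 26 peaks in 3.67 Mb, or 7.08 per Mb (4.63 to 10.4), against 1.89 (1.82 to 1.97) for all short genes.

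**Figure D3:**
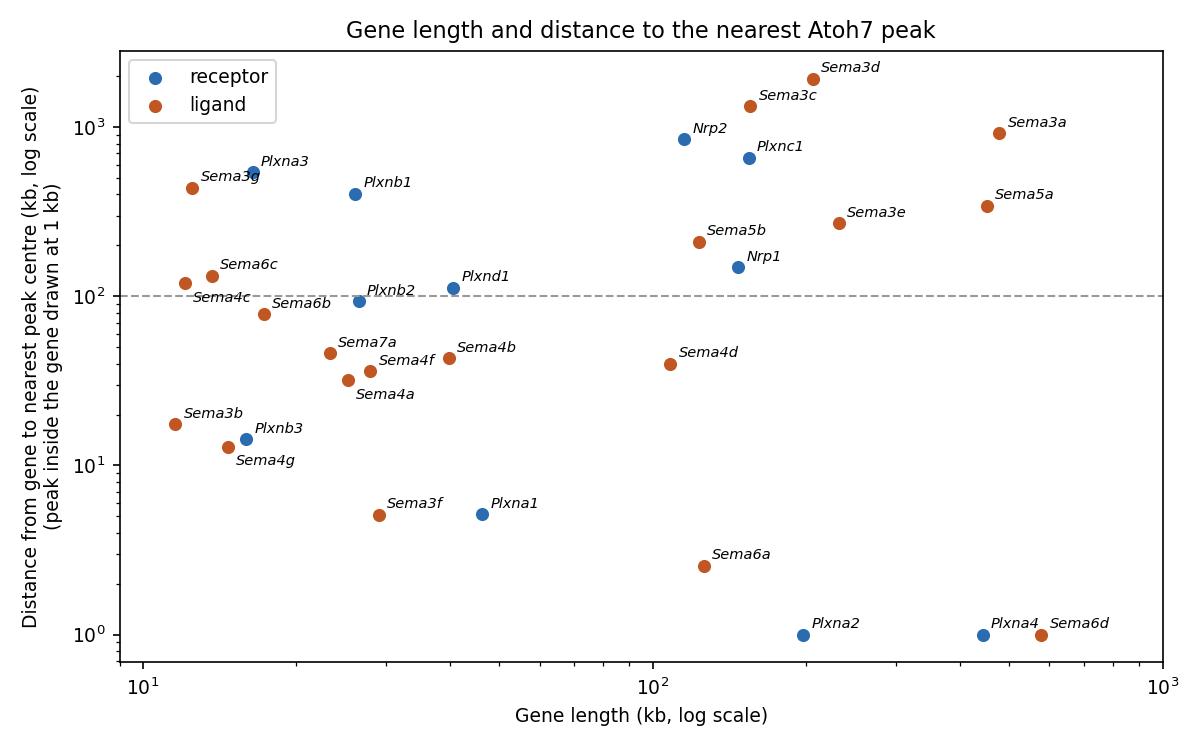
Length of each gene against the distance from the gene to its nearest peak centre, both on log axes, with receptors in blue and ligands in orange, and a dashed line at 100 kb. Long genes sit at both extremes: Plxna2, Plxna4 and Sema6d hold a peak, while Sema3a, Sema3c, Sema3d, Nrp2 and Plxnc1 lie 661 to 1939 kb from the nearest.

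Short members also lay among more genes. The window of a short member held a median of 9 other protein-coding genes and that of a long member 0.5. In windows with more than 4 other coding genes, the median over all genes, members had 20 peaks in 2.73 Mb, or 7.32 per Mb (4.47 to 11.3), against 2.66 (2.52 to 2.81) for all genes in such windows. In windows with 4 or fewer, members had 1.65 per Mb (0.855 to 2.89), against 1.54 (1.48 to 1.598) for all genes. Counted by gene the contrast was smaller in the denser windows. There 8 of 13 members had a peak within 100 kb (61.5%), against 41.1% of all genes. In the others, 8 of 18 members had one (44.4%), against 29.0%. Of the 32 peaks, 16 were centred inside a protein-coding gene that is no member. With those inside members, 19 of the 32 lay inside a protein-coding gene (59.4%), near the 53.7% of all peaks of the list. The 32 peaks were 196 to 616 bp wide with a median of 335 bp, against 381 bp for the whole list. Those near receptors had a median of 405 bp (298 to 616 bp) and those near ligands 316 bp (196 to 562 bp). Width is not a measure of occupancy.

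**Figure D4:**
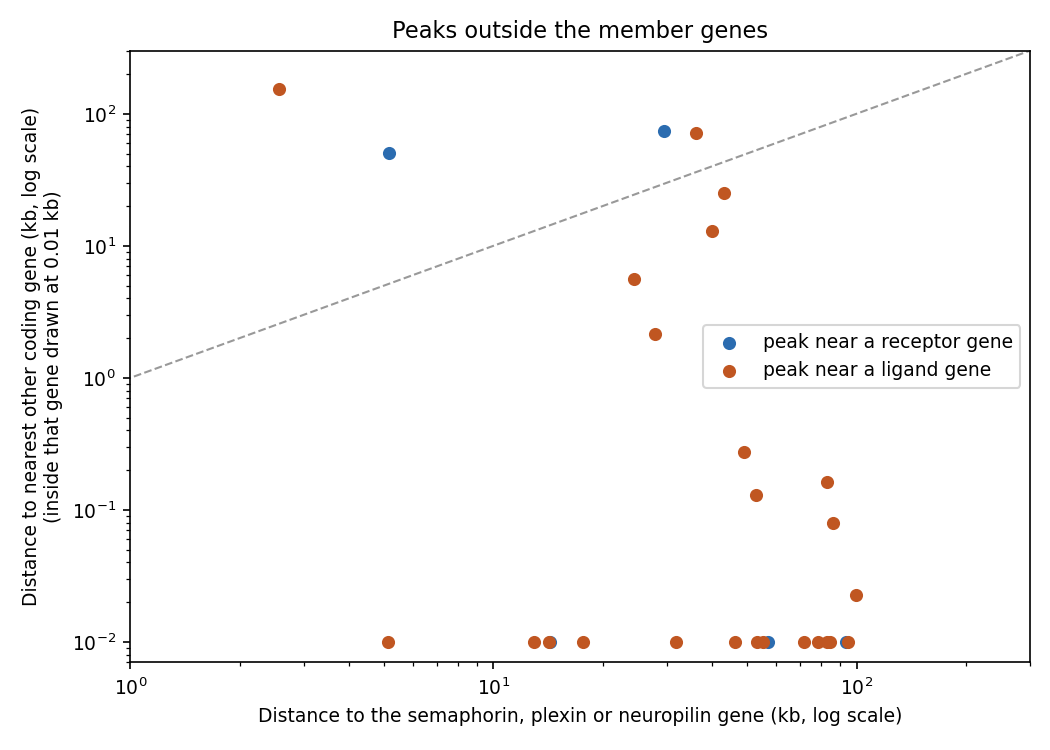
Each of the 29 peaks outside the members, by its distance to the nearest member (horizontal) and to the nearest other protein-coding gene (vertical), both in kb on log axes, with a dashed line of equal distance. Only 4 peaks, near Sema6a, Plxna1 (2 peaks) and Sema4f, lie above the line, and 16 lie inside another gene. Of all peaks of the list, 53.7% lie inside a protein-coding gene.

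Several ligands lay in long stretches without any peak. Sema3d, Sema3a and Sema3e stand in one 4.90 Mb stretch of chromosome 5 between neighbouring peaks, the 57th widest of 3642 such gaps, which holds 10 protein-coding genes. Sema3c lies in a gap of 5.55 Mb on the same chromosome and Sema5a in one of 5.09 Mb on chromosome 15. The median gap was 0.258 Mb. In all, 5 of 31 members (16.1%, 5.45 to 33.7%) lay in gaps of 4 Mb or more, a bound chosen after these values were seen, against 16.9% of all protein-coding genes, so the share of members was near that of all genes. These were 5 of 20 ligands and 0 of 11 receptors, and 3 of the 5 ligands share 1 gap. The peak names carry running numbers with 3517 of 7185 absent. Of the numbers that fall in these gaps, 5 were absent in that of Sema3d, Sema3a and Sema3e, 1 in that of Sema3c and 3 in that of Sema5a. No number was absent between the peaks on either side of Plxna1, Sema3f, Sema4d, Sema6d or Sema7a.

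Genes that act with or below semaphorin receptors were counted from a fixed list. Of 36 such genes, 4 had a peak inside (11.1%, 3.11 to 26.1%), against 7.17% of all protein-coding genes, with 7 peaks in 3.06 Mb (2.29 per Mb, 0.92 to 4.72). These were Mical2, an oxidoreductase of actin filaments, with 3 peaks, Limk1, the kinase that acts on cofilin, with 2, Cntn2, an adhesion protein of axons, with 1, and Fyn, a kinase that acts on plexin A signalling, with 1. A peak lay within 100 kb of 20 of the 36 (55.6%, 38.1 to 72.1%), against 34.9% of all protein-coding genes, whose share lay just below that interval. Only 5 of the 36 were the nearest protein-coding gene to such a peak (13.9%, 4.67 to 29.5%), near the 11.2% of all protein-coding genes. Nrcam, the adhesion gene that works with Sema6d and Plxna1 at the optic chiasm, had none, its nearest being 1812 kb away. Of the collapsin response mediator family, which act below Sema3a, Dpysl3 and Dpysl4 had 1 peak each within 100 kb, at 41.0 and 10.4 kb, while Crmp1, Dpysl2 and Dpysl5 had none, with the nearest at 253, 308 and 249 kb. In the other guidance families, 3 of 7 Slit and Robo genes and 1 of 8 EphB and ephrin-B genes had a peak inside. So did 4 of 12 netrin, Dcc, Neo1 and Unc5 genes. The share was 7.17% of all protein-coding genes and 26.8% of those of 100 kb or more. Median gene length was 326 kb for Slit and Robo genes and 133 kb for netrin and related genes. It was 21.6 kb for EphB and ephrin-B genes and 40.5 kb for the members. Per Mb inside genes, semaphorins, plexins and neuropilins held 0.767 peaks (0.158 to 2.24), Slit and Robo genes 4.63 (2.70 to 7.42), netrin and related genes 1.64 (0.532 to 3.82), and EphB and ephrin-B genes 1.34 (0.034 to 7.48). The interval of the Slit and Robo genes, 17 peaks in 3 genes, lay wholly above that of the members, and the other intervals overlapped it. Counted by gene, the shares with a peak inside had overlapping intervals. These were 42.9% (9.90 to 81.6%) for Slit and Robo genes and 9.68% (2.04 to 25.8%) for members. With 100 kb flanks the intervals of members (3.20 per Mb, 2.19 to 4.52) and of Slit and Robo genes (3.90 per Mb, 2.35 to 6.09) overlapped.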

How the data were processed

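For the authors' work on the reads, the submitters' processing notes name the mm10 build and the tools MACS2 2.2.7.1, Bowtie2 2.3.5, Picard 2.0.1, bedtools and SAMtools, without their order or settings. The deposited table gives peak positions, counted from 1, and widths in bp, per the file headers. Every peak name begins with Atoh7_R1. The sources used here do not give how absent numbers were removed or whether replicate 2 or IgG entered that step. No sample entered a test, since the list has no value per library.

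Peaks were placed by their midpoint against RefSeq genes of GRCm38.p6, leaving out 6 peaks on other sequences. Peaks tied between genes counted for each. Overlapping windows were merged before rates were computed. Intervals are exact at 95% (Clopper-Pearson for shares, Poisson for rates, conditional binomial for ratios), with no p-values. Listed starts came from a promoter table. The members, gene lists and rules were chosen with earlier results of these data known. All members are accounted for, and other genes are named as neighbours of a peak or from fixed lists. The scripts were tested on simulated peaks. Software was scipy 1.17.1, pandas 2.3.3, numpy 2.4.6 and matplotlib 3.10.9 under Python 3.11.15.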

Additional observations from a re-analysis of the deposited data

How the results depend on the processing

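Of 51 alternative values, 37 stayed within the interval of the reported value or within 1.5 times the reported count. Flanks of 50 kb gave 14 members and 19 peaks. Flanks of 10 kb gave 6 members and 6 peaks, 0.973 ligand peaks per Mb and a receptor to ligand ratio of 2.13 (0.285 to 15.9). The wider 50% of peaks gave 8 members and 10 peaks, 0.763 ligand peaks per Mb in genes and flanks, 0 per Mb inside ligand genes, and a ratio in genes and flanks of 1.91 (0.44 to 8.31). Nearest protein-coding genes alone gave 6 members and 7 peaks, 0.458 ligand peaks per Mb and a ratio of 2.55. The receptor to ligand ratio in genes and flanks was therefore above 1 under 3 alternatives and below 1 as reported, and the cause was not tested. Any overlap of 1 bp, peaks within 2 kb counted once and plexins alone as receptors kept each value within its interval, as did leaving out Sema4g, Plxna1 (0.33, with an interval of its own below 1) or, inside genes, Plxna2. So did leaving out peaks at starts of other genes, an alternative chosen after seeing the data. Without Sema6d, or with the wider 50% of peaks, no ligand gene held a peak and no ratio inside genes could be computed. No paired analysis was possible because the list has no value per library, and no library could be left out for the same reason. Read depth is unknown, so a gene without a peak may hold one below detection.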
